A study of Mus musculus with 12 samples.

Results

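The hippocampus of young adult sons of depressed fathers (F1_Dep) was compared with that of normal mice of the founder generation (F0_Ctl), in 3 libraries a group out of 12 libraries in the series. F1_Dep were the male offspring of males in which depression had been induced by stress. F0_Ctl were normal males of the founder generation. Beside them stand the male offspring of normal males (F1_Ctl, 3 libraries), which share their generation with F1_Dep, and the stress-depressed founder males (F0_Dep, 3 libraries), which entered the statistical fit as a source of replicate spread. All mice were C57BL/6 males of 8 weeks, and each library came from a separate mouse. The labels give no father or litter, so mice of an F1 group may share one. The sources used here name neither the stress procedure nor the hour of dissection. F1_Dep and F0_Ctl differ both in generation and in the history of the father, so in this comparison these cannot be told apart, and F1_Ctl values are given beside most genes described for that reason.

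Glucocorticoids are adrenal hormones released under stress. In the brain they bind the glucocorticoid receptor, which enters the nucleus, binds DNA at glucocorticoid response elements and raises a known set of target genes in neurons and glia. The unfolded protein response raises chaperones of the endoplasmic reticulum, and the heat shock response raises chaperones of the cytosol. The dentate gyrus is the part of the hippocampus in which granule cells are found and in which new neurons form in adult rodents, and glucocorticoids and stress are known to act on that process.

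The 6 libraries held between 19131961 and 23083678 expected counts each. Dentate granule cell and CA1 to CA3 pyramidal markers, which mark the hippocampus, were present in all 6. The granule cell markers summed to 390 to 873 CPM (counts scaled to library size) in F1_Dep and 1050 to 1410 CPM in F0_Ctl. The pyramidal markers summed to 1630 to 1750 CPM in F1_Dep and 1410 to 1830 CPM in F0_Ctl. Markers of neighbouring tissue differed between libraries. Striatum markers summed to 1640, 402 and 305 CPM in F1_Dep 1, 2 and 3, against 222, 216 and 304 CPM in F0_Ctl. Choroid plexus markers summed to 3800, 6550 and 6170 CPM in F1_Dep, against 237, 336 and 6750 CPM in F0_Ctl, where 3 of 18 markers had a count of 0 in at least 1 library. Mitochondrially encoded genes took 6.63 to 7.13% of the counts in F1_Dep and 7.43 to 9.42% in F0_Ctl.

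Promoter sequences are shown for 4 genes that stood higher in F1_Dep and whose promoter holds the response element for which their group is known. They are the 250 bases before a transcription start on the forward strand, from RefSeq on GRCm38.p6, in lower case with the element in capitals. Sgk1 (chr10:21993640-21993889) holds the glucocorticoid response element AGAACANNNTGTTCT from 189 to 175 bases before the start of 1 of its 6 windows. Hspa5 (chr2:34771840-34772089), Creld2 (chr15:88819396-88819645) and Pdia6 (chr12:17266339-17266588) hold the endoplasmic reticulum stress element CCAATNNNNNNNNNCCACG, at 65 to 47, 126 to 108 and 98 to 80 bases before the start. In Creld2 it lies on the reverse strand, so the capitals show its reverse complement.
Sgk1: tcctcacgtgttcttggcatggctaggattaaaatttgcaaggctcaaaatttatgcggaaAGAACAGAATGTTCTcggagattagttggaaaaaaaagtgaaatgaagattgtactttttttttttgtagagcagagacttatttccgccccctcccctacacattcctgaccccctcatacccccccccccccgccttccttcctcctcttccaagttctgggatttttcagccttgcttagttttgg
Hspa5: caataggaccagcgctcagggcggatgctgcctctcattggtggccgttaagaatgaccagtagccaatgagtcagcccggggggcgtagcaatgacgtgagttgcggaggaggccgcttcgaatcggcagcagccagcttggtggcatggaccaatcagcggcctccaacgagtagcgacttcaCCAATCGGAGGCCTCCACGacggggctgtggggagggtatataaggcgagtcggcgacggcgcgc
Creld2: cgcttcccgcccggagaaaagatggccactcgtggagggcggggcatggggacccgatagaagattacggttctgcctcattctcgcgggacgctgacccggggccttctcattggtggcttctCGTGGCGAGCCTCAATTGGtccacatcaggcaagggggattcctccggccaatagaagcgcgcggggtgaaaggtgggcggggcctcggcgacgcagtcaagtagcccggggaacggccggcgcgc
Pdia6: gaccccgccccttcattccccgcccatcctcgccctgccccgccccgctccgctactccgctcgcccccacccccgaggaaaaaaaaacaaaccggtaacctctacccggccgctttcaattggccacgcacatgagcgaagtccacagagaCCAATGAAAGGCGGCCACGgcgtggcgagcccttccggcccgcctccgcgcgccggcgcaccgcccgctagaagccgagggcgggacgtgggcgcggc
Both strands of all 32851 RefSeq promoter windows, from 250 bases before to 50 bases after a start, were searched for each motif, and none of the matches shown overlaps another motif searched. The glucocorticoid element, at full length without mismatch, was in 0.00913% of windows and in 1 of the 21 glucocorticoid-induced genes with a window. The endoplasmic reticulum stress element was in 0.119% of windows, and in 37 of 27025 genes. It was in 7 of the 19 members of that list with a window (36.8%): Hspa5, Creld2, Pdia6, Calr, Canx, Dnajc3 and Hsp90b1. The heat shock element GAANNTTCNNGAA was in 0.603% of windows and in 3 of the 10 heat shock chaperones with a window, Hspd1, Hspe1 and Hsph1. These matches describe letters in a window, not binding.

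No gene of 16163 passed an adjusted p of 0.05 between F1_Dep and F0_Ctl in edgeR's quasi-likelihood test (0%), where the smallest adjusted p was 0.0526. At an unadjusted p under 0.05, 1060 genes stood higher in F1_Dep (6.56%) and 1018 lower (6.3%), 2078 in all (12.9%). On the same counts DESeq2 called 410 of 14884 genes with an adjusted p (2.75%), 249 higher (1.67%) and 161 lower (1.08%). In the deposited FPKM values, a count scaled to gene length and library size from the same libraries, limma called 43 of 13820 genes (0.311%), 21 higher (0.152%) and 22 lower (0.159%). The edgeR count ran from 0 to 12 when 1 of the 6 libraries was left out, with 12 without F1_Dep 1, 4 without F0_Ctl 3, and 1 each without F1_Dep 2 or F0_Ctl 2. The FPKM count ran from 1 without F1_Dep 3, 4 without F0_Ctl 1 and 23 without F1_Dep 2 to 627 without F0_Ctl 3 and 883 without F0_Ctl 2. Gene values below are therefore given by library, and no single gene is called higher or lower by the count test. Among all genes, 47.6% had a log2 fold change above 0 and 52.4% below 0, with a median of -0.014. All 3 F1_Dep libraries lay above all 3 F0_Ctl libraries in 9.1% of genes and below them in 10.5%.

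The genes with the smallest p and higher values in F1_Dep were led by 2 targets of the glucocorticoid receptor, Plin4 and Sgk1. Plin4, a coat protein of lipid droplets (ENSMUSG00000002831, chr17:56100591-56109803 on GRCm38), had 18.5, 26.5 and 34.6 CPM in F1_Dep, 3.91, 3.08 and 7.39 CPM in F1_Ctl, and 1.78, 4.47 and 3.59 CPM in F0_Ctl. The lowest F1_Dep library stood above every library of both control groups. For F0_Ctl this was fixed in advance, since no overlap with F0_Ctl was a condition for naming the 24 genes of smallest p. Its log2 fold change against F0_Ctl was 3.01 ± 0.39 (SE, edgeR adjusted p = 0.0526), and in FPKM it was 1.43 ± 0.18 on the log2(FPKM + 1) scale (limma adjusted p = 0.0184). Sgk1, a kinase named for its induction by serum and glucocorticoids (ENSMUSG00000019970, chr10:21882184-21999903), had 203, 303 and 273 CPM in F1_Dep, 77.4, 85.6 and 145 CPM in F1_Ctl, and 62.8, 54.8 and 87.8 CPM in F0_Ctl. These groups did not overlap either, and the log2 fold change was 1.92 ± 0.25 (edgeR adjusted p = 0.0526). In FPKM, Sgk1 had 85.9, 135 and 120.0 in F1_Dep and 26.8, 22.5 and 41.9 in F0_Ctl.

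Of 24 glucocorticoid-induced genes tested, 21 had a log2 fold change above 0, and the median over the list was 0.46. At an unadjusted p under 0.05, 13 stood higher and 1 lower, DESeq2 called 9 of them, all higher, and in 11 the groups did not overlap. Over all genes 6.56% stood higher at that p, DESeq2 called 1.67% higher, and F1_Dep lay wholly above F0_Ctl in 9.1%. The same shares apply to the other lists with higher values below. The lists and their members were chosen with earlier results of these data known. Counts above these shares therefore follow in part from that choice, here and in the other lists. Cdkn1a, an inhibitor of cyclin-dependent kinases (ENSMUSG00000023067, chr17:29090976-29100727), had 11.3, 17 and 14.9 CPM in F1_Dep, 6.24, 6.77 and 7.29 CPM in F1_Ctl, and 6.97, 5.85 and 8.17 CPM in F0_Ctl. All F1_Dep values lay above those of both control groups, while the depressed founders F0_Dep had 13.2, 12.8 and 13.3 CPM. F0_Dep also lay above F0_Ctl in Plin4 (14.8, 24.7 and 22.1 CPM), Sgk1 (143, 142 and 114 CPM) and Nfkbia (21.3, 21.8 and 17.1 CPM). Higher values of these genes were thus not particular to F1_Dep. In Arl4d (13.7, 12.7 and 15.5 CPM) and Rcan2 (108, 120 and 121 CPM), described below, F0_Dep lay nearer to F0_Ctl than to F1_Dep. F0_Dep values are not given for other genes. The log2 fold change of F1_Dep against F0_Ctl was 1.04 ± 0.17 (edgeR adjusted p = 0.0772). Nfkbia, the inhibitor that holds the inflammatory factor NF-kappaB in the cytosol, had 21.8, 24.1 and 22.7 CPM in F1_Dep, 13.8, 17.8 and 17.2 CPM in F1_Ctl, and 14.6, 12.7 and 13.1 CPM in F0_Ctl (0.76 ± 0.13, edgeR adjusted p = 0.0974). Tsc22d3, which encodes the glucocorticoid-induced leucine zipper protein, had 56.3, 75.3 and 78.1 CPM in F1_Dep and 42, 41.3 and 40.0 CPM in F0_Ctl. In F1_Ctl it had 37.2, 44.2 and 57.9 CPM, so its highest F1_Ctl library reached past the lowest F1_Dep library. Pdk4, a kinase that turns down glucose oxidation, had 15, 20.1 and 20.7 CPM in F1_Dep, 6.77, 12.5 and 17.2 CPM in F1_Ctl, and 8.55, 11.2 and 8.22 CPM in F0_Ctl. Per1, a clock gene that glucocorticoids also induce, had 98.6, 114 and 121 CPM in F1_Dep, 69.4, 65.2 and 56.7 CPM in F1_Ctl, and 81, 91.3 and 65.9 CPM in F0_Ctl.

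Not every target stood higher. Fkbp5, the co-chaperone that limits the glucocorticoid receptor and is among its best known targets, had 44.9, 54.4 and 57.1 CPM in F1_Dep, 59.3, 47.5 and 46.9 CPM in F1_Ctl, and 49.8, 53.2 and 46.9 CPM in F0_Ctl. The groups overlapped and the log2 fold change was 0.06 ± 0.12 (edgeR adjusted p = 0.867). Cebpd, a transcription factor of the acute phase response, had 8.69, 19.3 and 15.4 CPM in F1_Dep, 20.9, 29.7 and 30.5 CPM in F1_Ctl, and 33.2, 18.8 and 17.5 CPM in F0_Ctl, with a log2 fold change of -0.67 ± 0.29. The metallothionein genes Mt1 and Mt2 had log2 fold changes of 0.03 and -0.28. The receptor itself, Nr3c1, had 116, 102 and 101 CPM in F1_Dep, 82.4, 124 and 105 CPM in F1_Ctl, and 115, 113 and 72.2 CPM in F0_Ctl, and among 10 genes of the corticosteroid receptors and the CRH system 7 stood higher and 3 lower, with a median of 0.09. The members of the glucocorticoid list beyond Plin4, Sgk1, Cdkn1a, Nfkbia and Per1 were picked after their values were seen, as were members of other lists that are not among its 2 with the smallest p.

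**Figure D1:**
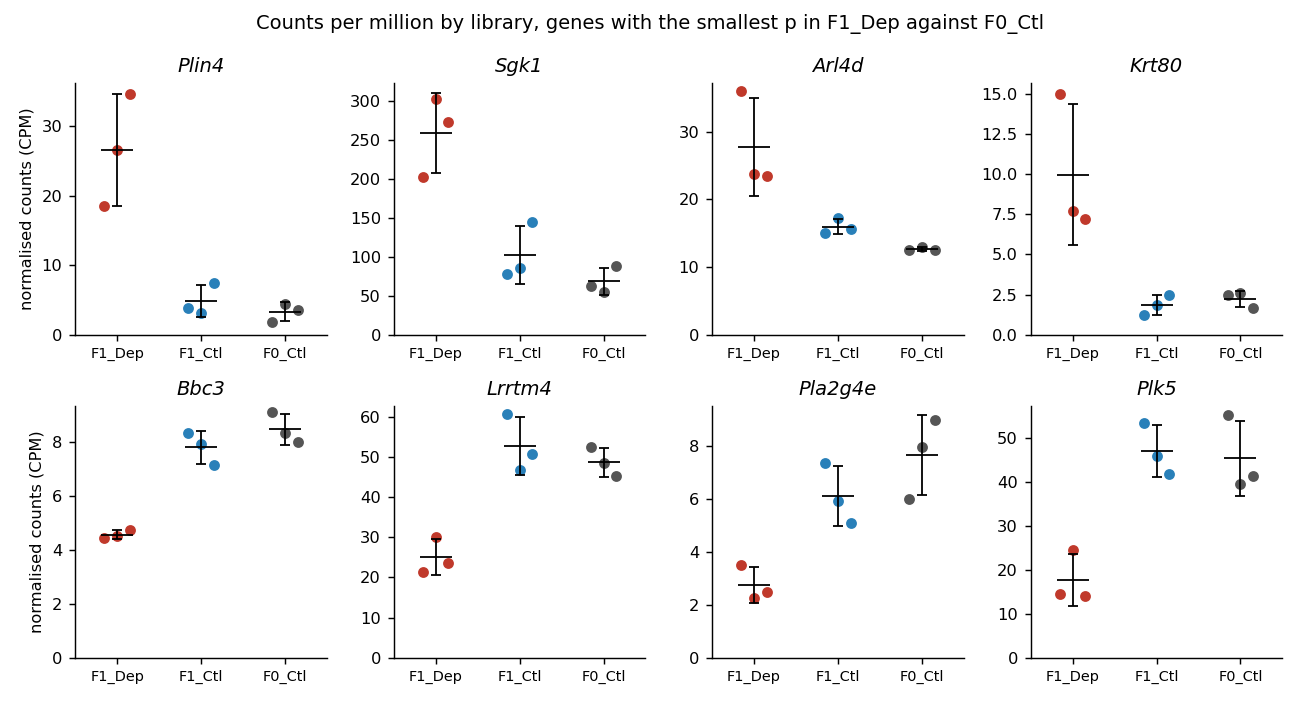
Normalised counts (CPM, linear axes from 0) of the 4 genes with the smallest p on each side, in F1_Dep, F1_Ctl and F0_Ctl. Points are libraries, bars the mean ± SD (n = 3). In the upper row F1_Dep lies above both control groups (Plin4 at 18.5 to 34.6 CPM, against 1.78 to 4.47 CPM in F0_Ctl), and in the lower row below them (Bbc3 at 4.42 to 4.73 CPM, against 7.99 to 9.11 CPM in F0_Ctl). No overlap with F0_Ctl was a condition for naming these genes.

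Other genes of smallest p and higher values belong to lipid, signalling and structural roles. Krt80, a keratin of intermediate filaments, had 15, 7.7 and 7.2 CPM in F1_Dep, 1.23, 1.87 and 2.5 CPM in F1_Ctl, and 2.49, 2.57 and 1.68 CPM in F0_Ctl (log2 fold change against F0_Ctl 2.14 ± 0.34, edgeR adjusted p = 0.0743). Arl4d, a small GTPase of the ADP-ribosylation factor family, had 36.1, 23.8 and 23.4 CPM in F1_Dep, 15, 17.2 and 15.7 CPM in F1_Ctl, and 12.6, 13 and 12.5 CPM in F0_Ctl. Both were highest in F1_Dep 1, the library with the highest striatum markers, and the part of that tissue in their levels was not tested. Etnppl, an enzyme that breaks down phosphoethanolamine and is enriched in astrocytes, had 26.8, 23.2 and 26.6 CPM in F1_Dep, 9.01, 16.3 and 19 CPM in F1_Ctl, and 12.5, 10.2 and 10.1 CPM in F0_Ctl. Its log2 fold change was 1.23 ± 0.21 (edgeR adjusted p = 0.1), while 9 of 15 astrocyte markers stood higher and 6 lower, with a median of 0.07. Cerk, the kinase that phosphorylates ceramide, had 70.3, 70.5 and 76.3 CPM in F1_Dep, 56.1, 58.2 and 55 CPM in F1_Ctl, and 51.8, 58.4 and 51.7 CPM in F0_Ctl. Rcan2, a regulator of the phosphatase calcineurin, had 253, 178 and 194 CPM in F1_Dep and 88.1, 127 and 105 CPM in F0_Ctl, and its F1_Ctl mean was 124 ± 22.3 CPM (SD, n = 3). Rcan2 too was highest in F1_Dep 1, and the part of striatum tissue in its level was not tested. Ralgds, an exchange factor for the GTPase Ral, had 149, 163 and 161 CPM in F1_Dep, 116, 120.0 and 119 CPM in F1_Ctl, and 115, 108 and 123 CPM in F0_Ctl. Plekhf1, a protein of endosomes and lysosomes, averaged 9.42 ± 2.48 CPM in F1_Dep, 4.99 ± 1.3 CPM in F1_Ctl and 3.24 ± 0.65 CPM in F0_Ctl (SD, n = 3 each). Endod1, which carries an endonuclease domain, had 146, 150.0 and 168 CPM in F1_Dep, 90, 98.1 and 123 CPM in F1_Ctl, and 97.1 to 102 CPM in F0_Ctl.

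Chaperones of the endoplasmic reticulum stood higher in F1_Dep. Of 21 genes of the endoplasmic reticulum stress list, 20 stood higher, and their median log2 fold change was 0.40. At an unadjusted p under 0.05, 13 stood higher and 0 lower, and in 15 all F1_Dep libraries lay above all F0_Ctl libraries. DESeq2 called 6 of them. Hspa5, the main chaperone of the compartment, which also holds the sensors of the unfolded protein response inactive, had 303, 411 and 386 CPM in F1_Dep, 190.0, 205 and 379 CPM in F1_Ctl, and 185, 196 and 190.0 CPM in F0_Ctl. Its F0_Ctl libraries lay close together, while F1_Ctl 3 stood among the F1_Dep libraries. The log2 fold change against F0_Ctl was 0.95 ± 0.22 (edgeR adjusted p = 0.142), and in FPKM it was 1.02 ± 0.14 (limma adjusted p = 0.0191). Herpud1, which takes part in the degradation of misfolded proteins, had 49.8, 67.8 and 64.6 CPM in F1_Dep, 39, 40.1 and 47.3 CPM in F1_Ctl, and 42.1, 38.5 and 39.2 CPM in F0_Ctl, with no overlap. Pdia4, a protein disulfide isomerase, had 54.7, 72.5 and 70.0 CPM in F1_Dep, 37.3, 34.4 and 70.4 CPM in F1_Ctl, and 30.9, 33.8 and 42.7 CPM in F0_Ctl. Of the genes whose promoters are printed above, Creld2, a chaperone-associated protein, had 15, 24.3 and 23 CPM in F1_Dep, 11.7, 12.5 and 20.6 CPM in F1_Ctl, and 13.4, 12.8 and 11.3 CPM in F0_Ctl. Pdia6, another disulfide isomerase, had 94.5, 123 and 127 CPM in F1_Dep, 78.6, 90.7 and 129 CPM in F1_Ctl, and 86.3, 84.3 and 88.2 CPM in F0_Ctl. In both genes F1_Ctl 3 lay within the F1_Dep range or above it. Canx and Calr, the lectin chaperones calnexin and calreticulin, hold the same promoter element and had log2 fold changes of 0.05 and 0.17. In Hspa5, Pdia4, Creld2 and Pdia6 the library F1_Ctl 3 stood apart from the other F1_Ctl libraries, and this library also had the most choroid plexus transcripts of the series, 12800 CPM against 439 and 1120 CPM in F1_Ctl 1 and 2. F0_Ctl 3 had 6750 CPM of these transcripts, against 237 and 336 CPM in F0_Ctl 1 and 2. Within F0_Ctl it was highest in Pdia4 and Pdia6, lowest in Creld2 and in the middle in Hspa5. The part of that tissue in these levels was not tested.

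Chaperones of the cytosol showed the same direction. The median log2 fold change over 14 heat shock chaperones was 0.34, and 13 stood higher in F1_Dep. In all, 12 had an unadjusted p under 0.05, 12 did not overlap between groups and 8 were called by DESeq2. Hspa1b, an inducible chaperone of the family Hsp70, had 31.3, 95.2 and 69 CPM in F1_Dep, 18.7, 29.1 and 20.6 CPM in F1_Ctl, and 20.6, 18.8 and 18.9 CPM in F0_Ctl (log2 fold change 1.75 ± 0.33, edgeR adjusted p = 0.103). Its near-identical neighbour Hspa1a had 30.3, 70.7 and 54.8 CPM in F1_Dep, 20.4, 28.3 and 18.8 CPM in F1_Ctl, and 22.3, 18.2 and 22.7 CPM in F0_Ctl, and how reads were divided between these copies is uncertain. In both, F1_Dep 2 was highest and F1_Dep 1 nearest to the control libraries. Dnajb1, the co-chaperone that works with them, had 56.1, 84.3 and 67 CPM in F1_Dep, 32.5, 45.3 and 43.7 CPM in F1_Ctl, and 43.7, 38.9 and 33.7 CPM in F0_Ctl. It was called in FPKM (0.84 ± 0.13, limma adjusted p = 0.0331). Hsph1, which serves as an exchange factor for Hsp70 chaperones, had 432, 501 and 443 CPM in F1_Dep, 368, 359 and 359 CPM in F1_Ctl, and 357, 367 and 357 CPM in F0_Ctl. Cryab, a small heat shock protein that is also abundant in oligodendrocytes, had 164, 165 and 157 CPM in F1_Dep, 72.1, 105 and 176 CPM in F1_Ctl, and 63.2, 72.1 and 116 CPM in F0_Ctl.

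**Figure D2:**
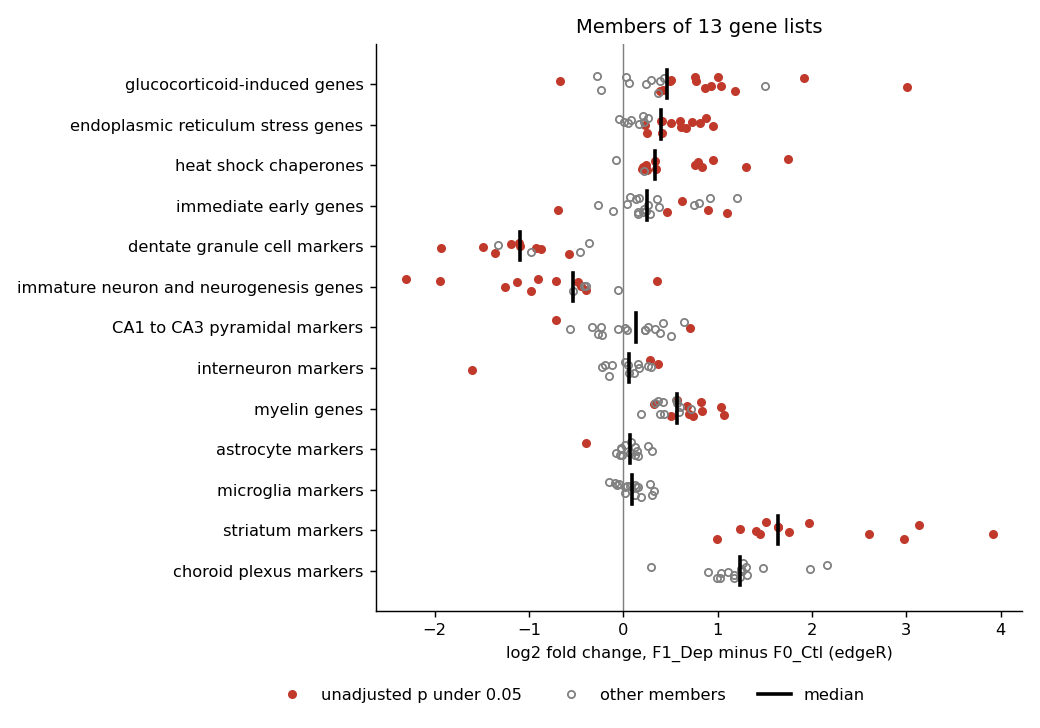
Log2 fold change of F1_Dep over F0_Ctl (horizontal axis, edgeR) for each tested member of 13 gene lists. Filled points have an unadjusted p under 0.05, open points do not, and black bars are medians. The medians are 0.46 for glucocorticoid-induced genes, 0.40 for endoplasmic reticulum stress genes and -1.10 for dentate granule cell markers, whose 13 points all lie below 0.

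All 13 markers of dentate granule cells had lower mean levels in F1_Dep, and their median log2 fold change was -1.10. At an unadjusted p under 0.05 there were 9, the groups did not overlap in 9, and DESeq2 called 6. Over all genes 6.3% stood lower at that p, F1_Dep lay wholly below F0_Ctl in 10.5%, and DESeq2 called 1.08% lower. The same shares apply to the other lists with lower values below, and these lists too were chosen with earlier results known. In bulk tissue, fewer cells of a type and less RNA per cell cannot be told apart. Plk5, a polo-like kinase of neurons (ENSMUSG00000035486, chr10:80356459-80365489), had 14.5, 24.5 and 14.1 CPM in F1_Dep, 53.4, 46 and 41.9 CPM in F1_Ctl, and 55.3, 39.5 and 41.5 CPM in F0_Ctl. Its log2 fold change against F0_Ctl was -1.36 ± 0.21 (edgeR adjusted p = 0.0743), and in FPKM it was -1.42 ± 0.18 (limma adjusted p = 0.0184). Tdo2, which starts tryptophan breakdown, had 1.7, 4.13 and 3.02 CPM in F1_Dep, 9.28, 11.6 and 11 CPM in F1_Ctl, and 11.5, 6.04 and 7.58 CPM in F0_Ctl. Prox1, the transcription factor that specifies granule cells, had 38.4, 113 and 71.2 CPM in F1_Dep, 240.0, 161 and 165 CPM in F1_Ctl, and 178, 192 and 139 CPM in F0_Ctl. C1ql2, a secreted synaptic protein of mossy fibres, had 2.21, 42.9 and 25.7 CPM in F1_Dep, 108, 118 and 110.0 CPM in F1_Ctl, and 116, 83.7 and 72.6 CPM in F0_Ctl. In Prox1 and C1ql2 the F1_Dep libraries took the order 1, 3, 2 from low to high, all below every control library. The median level of the list, in log2 CPM centred on the mean of the 12 libraries, was -1.56, -0.27 and -0.76 in F1_Dep 1, 2 and 3, against 0.58, 0.21 and 0.25 in F1_Ctl and 0.38, 0.24 and 0.00 in F0_Ctl. F1_Dep 1 is the library with 1640 CPM of striatum markers. Without it the list's median log2 fold change was -0.78. The pyramidal cell markers stood higher in 11 of 18 and lower in 7, with a median of 0.13, and of 0.69 without F0_Ctl 3 and 0.65 without F1_Dep 1, F1_Ctl 3 and F0_Ctl 3 together. Their level was 0.11, 0.02 and 0.16 in F1_Dep and -0.70, -0.45 and 0.39 in F0_Ctl.

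Several of the genes with the smallest p and lower values are known to be abundant in granule cells or their mossy fibres. Synpr, the synaptic vesicle protein synaptoporin, had 50.5, 85.4 and 68 CPM in F1_Dep, 158, 178 and 179 CPM in F1_Ctl, and 160.0, 127 and 129 CPM in F0_Ctl (log2 fold change -1.03 ± 0.16, edgeR adjusted p = 0.0772). Lrrtm4, a postsynaptic adhesion protein that organises excitatory synapses on granule cells, had 21.3, 30.0 and 23.7 CPM in F1_Dep, 60.9, 46.9 and 50.9 CPM in F1_Ctl, and 52.5, 48.5 and 45.3 CPM in F0_Ctl. Sema5a, an axon guidance protein, had 88.1, 117 and 88.5 CPM in F1_Dep, 266, 196 and 180.0 CPM in F1_Ctl, and 188, 184 and 166 CPM in F0_Ctl. In these 3 genes F1_Dep also lay below every F1_Ctl library, while no overlap with F0_Ctl was a condition for naming them. Dgkh, a diacylglycerol kinase, had 99.2, 148 and 124 CPM in F1_Dep, 286, 248 and 207 CPM in F1_Ctl, and 256, 252 and 183 CPM in F0_Ctl, but the deposited FPKM values did not show this. There it had 0.667, 0.766 and 1.07 in F1_Dep and 0.575, 1.54 and 0.606 in F0_Ctl, a log2 difference of -0.03 ± 0.25. Robo3, a receptor for axon guidance cues, which was picked after its values were seen, had 22, 38.4 and 33 CPM in F1_Dep, 106, 37.5 and 35.3 CPM in F1_Ctl, and 68.8, 104 and 75.3 CPM in F0_Ctl.

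Among 15 genes of immature neurons and neurogenesis 14 also stood lower, and the list's median was -0.53 on the log2 scale. An unadjusted p under 0.05 went with lower values in 10, and DESeq2 called 7 lower. Igfbpl1, a secreted protein of newborn neurons, had 1.95, 1.81 and 1.49 CPM in F1_Dep, 7.25, 2.31 and 4.39 CPM in F1_Ctl, and 7.38, 5.47 and 7.31 CPM in F0_Ctl (-1.94 ± 0.35, edgeR adjusted p = 0.1). Fabp7, the fatty acid binding protein of radial glia and progenitors, had 8.23, 7.53 and 7.02 CPM in F1_Dep, 14.8, 22.1 and 23.1 CPM in F1_Ctl, and 17.4, 12.8 and 14.9 CPM in F0_Ctl. F1_Dep lay below both control groups in each of these genes, and F1_Dep 1 was not the lowest library in either. Neurod1, a transcription factor of granule cell differentiation, had 7.66, 19.9 and 14.1 CPM in F1_Dep, 33, 26.1 and 27.5 CPM in F1_Ctl, and 38.7, 28.8 and 24.2 CPM in F0_Ctl. Eomes, the factor of intermediate progenitors, was rare in all libraries, at 0.206, 0.344 and 0.135 CPM in F1_Dep, 1.67, 0.275 and 0.649 CPM in F1_Ctl, and 0.916, 1.57 and 0.999 CPM in F0_Ctl. Dcx, the microtubule protein that marks migrating new neurons, overlapped between groups, with 24.7, 13.4 and 15.2 CPM in F1_Dep, 22.4, 17.8 and 15.6 CPM in F1_Ctl, and 16.9, 28.2 and 25.1 CPM in F0_Ctl. Stmn1, a microtubule regulator that other cells also make, was the exception, at 339, 230.0 and 246 CPM in F1_Dep, 196, 206 and 245 CPM in F1_Ctl, and 181, 226 and 226 CPM in F0_Ctl. The list's level was -0.32, -0.30 and -0.46 in F1_Dep, 0.20, -0.18 and 0.23 in F1_Ctl, and 0.25, 0.19 and 0.28 in F0_Ctl. In that level F1_Dep 1 lay between the other F1_Dep libraries, but single genes differed. Among the F1_Dep libraries it was lowest in Neurod1 and highest in Dcx and Stmn1. The list's median log2 fold change was -0.72 without F1_Dep 1. It ran from -0.72 to -0.5 with 1 F1_Dep or F0_Ctl library left out. The part of striatum tissue in these levels was not tested. Marcksl1, an actin-binding protein of growing neurites that is not on the list, had 22.1, 40.7 and 35.2 CPM in F1_Dep, 68.5, 63.9 and 75.8 CPM in F1_Ctl, and 79.2, 59.9 and 62.4 CPM in F0_Ctl.

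**Figure D3:**
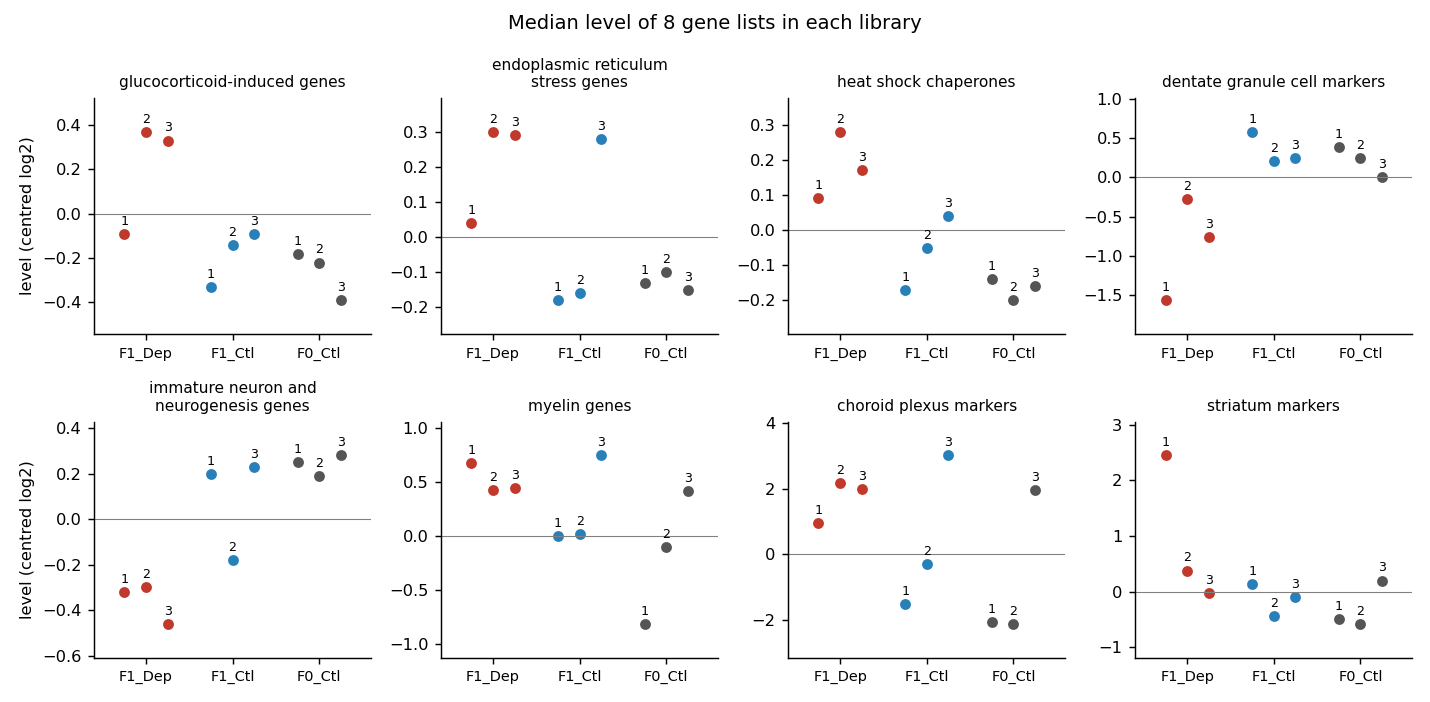
Median level of 8 gene lists in each library (vertical axes, log2 CPM centred on the mean of the 12 libraries, a separate scale for each panel), with F1_Dep left, F1_Ctl in the middle and F0_Ctl right and the replicate number beside each point. Dentate granule cell markers are lowest in F1_Dep 1 at -1.56, where striatum markers reach 2.45, and choroid plexus markers lie at 0.94 to 2.17 in F1_Dep, 3.01 in F1_Ctl 3 and 1.95 in F0_Ctl 3.

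Of the remaining genes with the smallest p and lower values, Bbc3, which encodes the pro-apoptotic protein Puma (ENSMUSG00000002083, chr7:16308393-16318205), had values close together within each group. It had 4.42, 4.52 and 4.73 CPM in F1_Dep, 8.31, 7.92 and 7.14 CPM in F1_Ctl, and 9.11, 8.32 and 7.99 CPM in F0_Ctl (log2 fold change -0.89 ± 0.13, edgeR adjusted p = 0.0743). In FPKM it had 2.31, 2.3 and 2.24 in F1_Dep and 5.22, 4.46 and 5.01 in F0_Ctl (limma adjusted p = 0.0191). Bbc3 and Cdkn1a are both targets of the transcription factor p53 and stood on opposite sides, and of 16 p53 targets tested 10 stood higher and 6 lower, with a median of 0.06. Pla2g4e, a phospholipase A2 family enzyme that makes precursors of endocannabinoid-like lipids, had 3.5, 2.24 and 2.48 CPM in F1_Dep, 7.34, 5.94 and 5.09 CPM in F1_Ctl, and 6.01, 7.98 and 8.99 CPM in F0_Ctl. Htra4, a secreted serine protease, had 1.29, 2.15 and 1.49 CPM in F1_Dep, 8.84, 4.46 and 5.34 CPM in F1_Ctl, and 6.87, 5.04 and 5.22 CPM in F0_Ctl. Rwdd3, a protein that promotes sumoylation, had 5.61, 5.29 and 5.36 CPM in F1_Dep, 12.7, 10.1 and 9.88 CPM in F1_Ctl, and 9.72, 9.27 and 12.1 CPM in F0_Ctl. In Htra4 and Rwdd3 all F1_Dep libraries lay below all libraries of both control groups, where no overlap with F0_Ctl was a condition for naming them. Arxes1 had 19.2, 17.4 and 16.8 CPM in F1_Dep, 26.4, 26.3 and 27.1 CPM in F1_Ctl, and 29.7, 24 and 24.7 CPM in F0_Ctl, and has a near-identical neighbour, so its assignment is uncertain.

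All 21 myelin genes stood higher in F1_Dep, at a median of 0.57 on the log2 scale, but the F0_Ctl libraries were spread widely. An unadjusted p under 0.05 was reached by 10 of them, and DESeq2 called 3. Ermn, a cytoskeletal protein of oligodendrocytes, had 218, 190.0 and 179 CPM in F1_Dep, 97.8, 125 and 194 CPM in F1_Ctl, and 51.3, 101 and 136 CPM in F0_Ctl (1.03 ± 0.30, edgeR adjusted p = 0.194). Hapln2, a link protein at nodes of Ranvier, had 81.7, 62.5 and 62.5 CPM in F1_Dep, 31.9, 36.3 and 62.1 CPM in F1_Ctl, and 19.2, 26.6 and 52.6 CPM in F0_Ctl. Replicate 3 was highest in both control groups, and it was the library richest in choroid plexus transcripts in each. The list's median was 0.91 without F0_Ctl 3 and 0.31 without F0_Ctl 1. The count and FPKM scales disagreed for Mbp, a main protein of myelin, which had 73.8, 85.7 and 82 CPM in F1_Dep, 68.4, 63.3 and 71.3 CPM in F1_Ctl, and 62.8, 75.2 and 55 CPM in F0_Ctl, yet 2800, 2190 and 2300 FPKM in F1_Dep and 801, 1410 and 2240 FPKM in F0_Ctl. Why these differ was not tested. Anln, an actin-binding protein of dividing cells that oligodendrocytes also make, picked after its values were seen, had 125, 112 and 121 CPM in F1_Dep, 42.7, 75.2 and 104 CPM in F1_Ctl, and 33.6, 47.1 and 53.3 CPM in F0_Ctl. It was called in FPKM (1.45 ± 0.16, limma adjusted p = 0.0184). Precursors of oligodendrocytes showed a median of 0.17 over 11 genes, and microglia markers one of 0.09 over 16.

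Of 13 striatum markers all stood higher in F1_Dep, with a median log2 fold change of 1.64 and of 0.48 without F1_Dep 1. All 13 had an unadjusted p under 0.05, but the groups did not overlap in only 1, and DESeq2 called 3. A high count at that p can thus go with a list that 1 library leads. Drd2, the dopamine receptor of indirect pathway neurons, had 45.5, 6.24 and 3.78 CPM in F1_Dep, 5.1, 3.08 and 4.14 CPM in F1_Ctl, and 2.04, 2 and 5.08 CPM in F0_Ctl. Adora2a, the adenosine receptor of the same neurons, had 54.6, 7.1 and 3.87 CPM in F1_Dep, 4.31, 1.93 and 2.3 CPM in F1_Ctl, and 2.14, 1.24 and 4.86 CPM in F0_Ctl. In both, F1_Dep 1 was far above the rest and F1_Dep 3 lay within the range of F0_Ctl. Of 18 choroid plexus markers all stood higher, with a median of 1.24. All 3 F1_Dep libraries and F0_Ctl 3 were rich in these transcripts and F0_Ctl 1 and 2 were not, and the median was 6.46 without F0_Ctl 3 and 0.69 without F0_Ctl 1 or without F0_Ctl 2. No member had an unadjusted p under 0.05, and in none were the groups apart. Folr1, the folate receptor of this tissue, had 10.7, 21.7 and 23 CPM in F1_Dep, 0.44, 3.25 and 40.5 CPM in F1_Ctl, and 0.305, 0.143 and 11.8 CPM in F0_Ctl. The part of these tissues in the differences of other genes was not tested. Leaving out F1_Dep 1, F1_Ctl 3 and F0_Ctl 3 together lowered the striatum median to 0.87 but widened the choroid plexus difference, to a median of 6.75, since F1_Dep 2 and 3 were then set against F0_Ctl 1 and 2. In that fit the list medians were 0.48 for glucocorticoid-induced genes, 0.43 for endoplasmic reticulum stress genes, 0.39 for heat shock chaperones, -0.87 for dentate markers, -0.66 for neurogenesis genes and 0.82 for myelin genes. There edgeR called 527 genes higher and 102 lower.

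Of 24 immediate early genes, which neuronal activity induces, 21 stood higher and 4 of those had an unadjusted p under 0.05, against 6.56% of all genes. Their median was 0.25 on the log2 scale. Homer1, a postsynaptic scaffold gene, had 229, 201 and 230.0 CPM in F1_Dep, 124, 129 and 121 CPM in F1_Ctl, and 169, 161 and 98.4 CPM in F0_Ctl, with no overlap. Nr4a3, a nuclear receptor of the immediate early class, had 119, 147 and 152 CPM in F1_Dep, 112, 127 and 89.4 CPM in F1_Ctl, and 106, 96.9 and 101 CPM in F0_Ctl. Arc, which acts on receptor traffic at synapses, overlapped between groups, with 535, 532 and 408 CPM in F1_Dep, 151, 299 and 127 CPM in F1_Ctl, and 436, 296 and 116 CPM in F0_Ctl. Jun stood on the other side, at 36.7, 76.5 and 50.3 CPM in F1_Dep and 102, 91.5 and 70.6 CPM in F0_Ctl, and its F1_Ctl mean was 102 ± 10.3 CPM (SD, n = 3). F0_Ctl 3 was the lowest F0_Ctl library in Homer1, Arc and Jun, and the list's median was 0.01 without it and 0.55 without F0_Ctl 1.

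Among receptors and enzymes studied in mood disorders, Htr2a, a serotonin receptor of cortical and hippocampal neurons, had 28.2, 21.3 and 25.7 CPM in F1_Dep, 15.5, 17.3 and 14.3 CPM in F1_Ctl, and 16.5, 14 and 14.8 CPM in F0_Ctl. The groups did not overlap, the log2 fold change against F0_Ctl was 0.73 ± 0.14 (edgeR adjusted p = 0.103), and in FPKM it was 0.92 ± 0.15 (limma adjusted p = 0.0417). The serotonin and tryptophan list stood higher in 11 of 15 genes and lower in 4, with a median of 0.30, and of 0.13 without F0_Ctl 3 and 0.11 without F1_Dep 1, F1_Ctl 3 and F0_Ctl 3 together. Ntrk2, the receptor for brain-derived neurotrophic factor, had 545, 583 and 581 CPM in F1_Dep, 430.0, 520 and 564 CPM in F1_Ctl, and 455, 475 and 399 CPM in F0_Ctl. Ntf3, a related neurotrophin, had 5.04, 5.04 and 5.18 CPM in F1_Dep, 12.7, 8.25 and 10.6 CPM in F1_Ctl, and 8.25, 6.8 and 9.85 CPM in F0_Ctl, where F1_Dep lay below both control groups (-0.71 ± 0.19, edgeR adjusted p = 0.165). Hdac4, a histone deacetylase, had 62.2, 60.2 and 59 CPM in F1_Dep, 45.8, 50.5 and 46.5 CPM in F1_Ctl, and 42.2, 44.5 and 42.7 CPM in F0_Ctl, while of 30 enzymes of DNA methylation and histone modification 12 stood higher and 18 lower, with a median of -0.05. Per2, a clock gene, had 56.7, 69.2 and 74.8 CPM in F1_Dep, 45.3, 32.3 and 31.3 CPM in F1_Ctl, and 44.8, 49.5 and 36.2 CPM in F0_Ctl, and the median over 17 clock genes was 0.06.

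The 13 mitochondrially encoded genes all stood lower in F1_Dep, with a median log2 fold change of -0.25, and of -0.13 without F0_Ctl 1. In 9 of them all F1_Dep libraries lay below all F0_Ctl libraries, and 4 had an unadjusted p under 0.05. Over all genes these shares on the lower side were 10.5% and 6.3%. Their median was -0.44 for F1_Dep against F1_Ctl and 0.23 for F1_Ctl against F0_Ctl. Over 80 cytosolic ribosomal protein genes the median was -0.12 and 78 stood lower, but it was 0.03 without F0_Ctl 1 and -0.23 without F0_Ctl 2. For these genes the larger differences lay on either side of F1_Ctl, with a median of -0.49 for F1_Dep against F1_Ctl and of 0.38 for F1_Ctl against F0_Ctl, where 79 of 80 stood higher in F1_Ctl. Over 78 nuclear-encoded respiratory chain genes the median was -0.07 and 66 stood lower, and it was 0.03 without F0_Ctl 1 and -0.17 without F0_Ctl 2. Genes of cholesterol synthesis had a median of 0.10, presynaptic release genes of 0.14, glutamate receptors and scaffolds of -0.10 and interneuron markers of 0.06. With 1 library left out, the medians of glutamate receptors ran from -0.20 to 0.05, of interneuron markers from -0.07 to 0.18, of microglia markers from -0.03 to 0.35, of astrocyte markers from -0.04 to 0.14, and of the corticosteroid receptor list from -0.07 to 0.17, so none of these kept 1 sign. Nor did the DNA methylation and histone enzymes, at 0.02 without F0_Ctl 2. The clock genes were at 0.15 without F0_Ctl 2 and 0.01 without F0_Ctl 3, the p53 targets at 0.14 without F0_Ctl 1, the presynaptic genes at 0.24 without F0_Ctl 3 and the cholesterol genes at 0.03 without F1_Dep 1. Of 16 endothelial and pericyte markers 12 stood lower, at a median of -0.23, with -0.15 without F1_Dep 1 and -0.14 without F0_Ctl 1. Cldn5, the main tight junction protein of brain vessels, had 24.1, 24.9 and 27.5 CPM in F1_Dep, 31.7, 24.7 and 27.2 CPM in F1_Ctl, and 50.4, 27.9 and 31.7 CPM in F0_Ctl.

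F1_Ctl, the sons of normal fathers, share the generation of F1_Dep and, as the labels give it, have no depressed father. The contrasts share libraries, so their values are not independent. In the same fit, 11 of the 24 genes with the smallest p passed an edgeR adjusted p of 0.05 for F1_Dep against F1_Ctl, where 7 genes of 16163 were called higher (0.0433%) and 20 lower (0.124%). For F1_Ctl against F0_Ctl none of the 24 passed and 0 genes were called. Plin4 rose in F1_Dep relative to F1_Ctl by 2.47 ± 0.38 (edgeR adjusted p = 0.037) and differed by 0.54 ± 0.39 between F1_Ctl and F0_Ctl. Sgk1 differed by 1.34 ± 0.25 between F1_Dep and F1_Ctl (adjusted p = 0.0602), and by 0.58 ± 0.25 between F1_Ctl and F0_Ctl. Cdkn1a rose relative to F1_Ctl by 1.09 ± 0.17 (adjusted p = 0.0377), with -0.05 ± 0.17 between F1_Ctl and F0_Ctl. Synpr fell by 1.34 relative to F1_Ctl (SE 0.16, edgeR adjusted p = 0.0308) and had 0.31 ± 0.16 between F1_Ctl and F0_Ctl. By list, the median of glucocorticoid-induced genes was 0.40 for F1_Dep against F1_Ctl and 0.15 for F1_Ctl against F0_Ctl, and that of dentate markers was -1.29 and 0.20. For endoplasmic reticulum stress genes these medians were 0.25 and 0.08, for heat shock chaperones 0.27 and 0.10, and for neurogenesis genes -0.53 and -0.18. Myelin genes had 0.22 and 0.38, and choroid plexus markers 0.20 and 1.08, so for these lists the larger median lay between the control groups. The labels of F1_Ctl alone carry lane names, so a difference in sequencing cannot be told apart from this group.

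**Figure D4:**
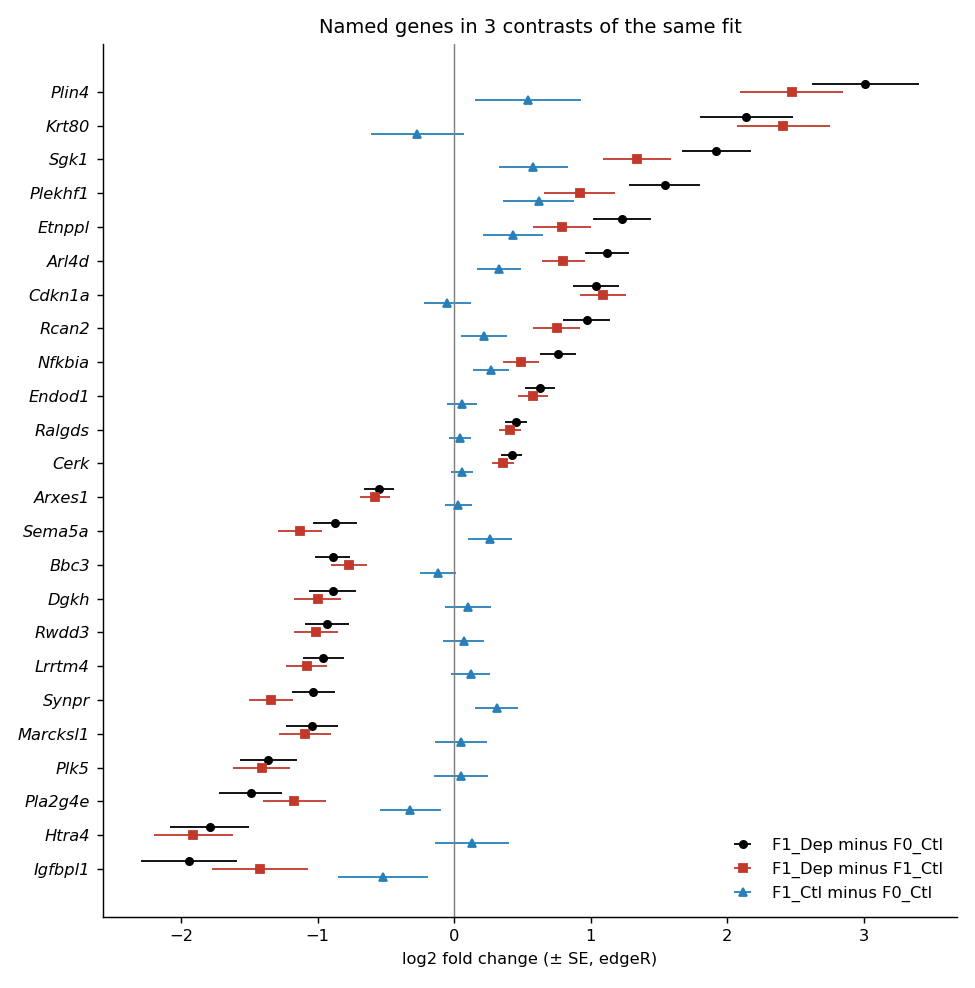
Log2 fold changes (horizontal axis, edgeR, bars ± SE) of the 24 named genes for F1_Dep minus F0_Ctl (black), F1_Dep minus F1_Ctl (red) and F1_Ctl minus F0_Ctl (blue), which share libraries. For Plin4 the values are 3.01, 2.47 and 0.54, and for Synpr -1.03, -1.34 and 0.31.

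Each gene was also looked up in the deposited FPKM values of the same libraries. Of the 24 named genes 13 were called there by limma, and DESeq2 called all 24 on the counts. The 24 were chosen on the same counts by smallest p and no overlap between groups. The DESeq2 calls therefore follow from that choice and add no support. Of 379 genes called by DESeq2 that had an FPKM value, 376 had the same sign. A total of 37 genes, 19 higher and 18 lower in F1_Dep, were called both by DESeq2 on counts and by limma on FPKM. Those not named above were picked on these calls. Among them Txnip, which inhibits thioredoxin and glucose uptake, had 34.7, 46.7 and 42.1 CPM in F1_Dep, 14.3, 25.9 and 42.7 CPM in F1_Ctl, and 17.5, 15.2 and 22.4 CPM in F0_Ctl. C4b, a complement component, had 65.6, 84.7 and 80.4 CPM in F1_Dep, 33.1, 48.5 and 81.3 CPM in F1_Ctl, and 28.7, 28.9 and 40.5 CPM in F0_Ctl. In both, F1_Ctl 3 reached the F1_Dep range. Arrdc2, an arrestin-domain protein, had 10.5, 14 and 13.5 CPM in F1_Dep, 6.95, 5.17 and 7.99 CPM in F1_Ctl, and 6.26, 5.89 and 7.08 CPM in F0_Ctl, with F1_Dep above both control groups. Psat1, an enzyme of serine synthesis, had 167, 152 and 153 CPM in F1_Dep, 101, 142 and 172 CPM in F1_Ctl, and 108, 103 and 117 CPM in F0_Ctl. On the other side, Pitpnm2, a lipid transfer protein, had 183, 285 and 232 CPM in F1_Dep, 458, 334 and 306 CPM in F1_Ctl, and 376, 410.0 and 360.0 CPM in F0_Ctl. Sox18, a transcription factor of endothelial cells, had 6.02, 6.71 and 6.62 CPM in F1_Dep, 9.01, 6.22 and 8.48 CPM in F1_Ctl, and 15.7, 9.08 and 10.7 CPM in F0_Ctl.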

How the data were processed

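Hippocampal RNA was sequenced, per the labels' protocols, from libraries made with TruSeq Stranded mRNA reagents. The authors deposited expected counts (estimated, not always whole) per Ensembl gene for 12 libraries, and FPKM values, used here for the 9 libraries outside F1_Ctl; those of F1_Ctl were not used here. HISAT2, Cufflinks 2.2.1 and mm10 are named without roles per the submitters' processing notes; the sources used here do not give the counting tool, annotation or use of strand, so overlapping and antisense genes cannot be told apart. FPKM files list only values above 0, and a missing gene was set to 0. Unused per-sample columns numbered 0.

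Of 35812 IDs, 35202 had a symbol, 610 had none (0.579% of counts), and 37 were summed into another ID of the same symbol. Of 26305 deposited gene positions, 99.97% overlapped the same gene in the GENCODE M21 annotation. Counts were rounded, scaled by TMM, filtered by filterByExpr and fitted with edgeR 4.0.16 (quasi-likelihood F-test, R 4.3.3) over all 12 libraries, with Benjamini-Hochberg adjustment over 16163 genes. SEs are approximate, as they were worked out from each fold change and F value. The FPKM test was limma 3.58.1 over 9 libraries on log2(FPKM + 1), keeping genes with at least 1 FPKM in 3 libraries; fold changes on that scale understate low genes. DESeq2 1.42.0, voom, other scalings, filters, samples and single omissions were alternatives. The code was tested on simulated data.

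Since fewer than 5 genes passed, the 12 genes with the smallest p on each side were named that had at least 2 CPM, an FPKM value and no overlap between groups, passing over predicted genes and pseudogenes, plus the 2 members with the smallest p of 31 lists. The members and lists were chosen with earlier results of these data known. The p-values rest on the spread between mice within groups, with 3 mice a group. In the main fits this spread was pooled over all groups fitted, not taken from F1_Dep and F0_Ctl alone. Mice of an F1 group may share a father or litter, so they may not be independent.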

Additional observations from a re-analysis of the deposited data

How the results depend on the processing

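Against 0 genes called by edgeR, DESeq2 called 410, voom with library weights 20, size factors in place of TMM 2, no filter on low counts 20, and the fit without the F1_Ctl libraries 43. With F1_Dep 1, F1_Ctl 3 and F0_Ctl 3 left out together it called 629, and with 1 library left out between 0 and 12. Library totals without TMM, and F1_Dep and F0_Ctl alone, called 0. Against 43 genes called in FPKM, limma called 1 without the filter on low values, 1 on F1_Dep and F0_Ctl alone, 297 with F1_Dep 1 and F0_Ctl 3 left out together, between 1 and 883 with 1 library left out, and 42 with a pseudocount of 0.1. With the replicate number as a block the counts were 1 by edgeR and 8 in FPKM. Deviations of F1_Dep and F0_Ctl libraries with the same number correlated at -0.0485, -0.177 and -0.141. With only 3 such pairs these values cannot show whether the numbers pair the mice. The labels name no pairing, and the block is given for completeness. The causes of these shifts were not tested. Over all alternatives, 149 named genes gave 2380 fold changes, of which 0 changed sign and 284 passed a threshold that they had missed. These genes were named by their p in this same comparison, or by calls of DESeq2 and in FPKM, which are among the alternatives. Both counts therefore follow in part from that choice and do not hold for genes at large. Of 496 list medians, 71 moved by more than the SD between the 3 F1_Dep libraries. That SD is wide where 1 F1_Dep library stands apart. The striatum median, 1.64 and 0.48 without F1_Dep 1, therefore does not count as moved.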
